A study of Mus musculus with 4 samples.

Results

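The 28 genes described here encode enzymes that make cholesterol and proteins that switch those enzymes on and off through the SREBP transcription factors. They were listed by symbol for what their products do, and all 28 were found among the 31557 gene symbols of the count table. By role they comprise 8 enzymes of the mevalonate stage (Acat2, Hmgcs1, Mvk, Pmvk, Mvd, Idi1, Fdps and Ggps1) and 12 enzymes of the squalene and sterol stage (Fdft1, Sqle, Lss, Cyp51, Msmo1, Nsdhl, Hsd17b7, Ebp, Sc5d, Dhcr7, Tm7sf2 and Lbr). A further 7 belong to SREBP control (Srebf1, Srebf2, Scap, Insig1, Insig2, Mbtps1 and Mbtps2), and 1, Stard4, carries sterols between membranes. Together they took 955395 read counts in the wells analysed.

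Single cells were sorted for green fluorescent protein (GFP) from the dentate gyrus of 8 male nestin-GFP mice, 96 wells per mouse, and each cell's full-length cDNA was sequenced. The reporter is driven by nestin regulatory sequence, which is active in neural stem cells and also in cells of vessels. In 4 mice, 2 µl of an antagomir against the microRNA miR-132 was given into the cerebral ventricles, as an LNA- and cholesterol-modified oligonucleotide at 0.33 nmol per ml of artificial cerebrospinal fluid. These mice were injected at 2 months of age and analysed at 3 months. The other 4 mice received a scrambled LNA oligonucleotide in the same fluid. The labels give neither its dose nor whether it carried cholesterol, and state the ages for the antagomir mice only. Mice are named by group and replicate (antagomir replicates 1 to 4, scrambled replicates 1 to 4), and the mouse is the unit of replication throughout. The deposited well table gives 2 sort days and, under the header Project, 2 entries ending in L5 and L6, which are called pools here. Every combination of day and pool held 1 mouse of each group.

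Of 768 wells, 716 held between 500 and 6000 detected genes and were used, 84 to 93 per mouse. These wells had a median of 650777 read counts and 2778.5 genes, and the kept wells of a mouse summed to between 43996495 and 69191485 counts. Counts are reads without molecular identifiers, so they are not independent molecules. Clustering without the cholesterol genes gave 4 classes large enough to compare: 302 oligodendrocyte-like wells (25 to 45 per mouse), 168 wells like radial glia-like stem cells (RGL) or astrocytes (15 to 39), 87 endothelial-like (3 to 19) and 82 mural-like (6 to 14). Their names were checked against markers in CPM, read counts scaled to a common library total, summed per mouse. The 11 oligodendrocyte markers came to 96650 ± 5630 CPM (mean ± SD, n = 8 mice) in oligodendrocyte-like wells against 329 ± 69.4 in RGL or astrocyte-like wells, and the RGL and astrocyte markers came to 240 ± 77.4 and 35800 ± 3325. Nes itself, the gene of the reporter, was at 35.8 ± 18.7 CPM in the oligodendrocyte-like and 23.7 ± 9.06 in the RGL or astrocyte-like class, against 273 ± 151 in the endothelial-like and 297 ± 61.2 in the mural-like class. The RGL or astrocyte-like class joined a cluster of 81 shallow wells and one of 87 deeper wells, and radial glia-like cells and astrocytes were not separated in it. A cluster of 40 wells, closest to the RGL and astrocyte markers, did not meet the naming rule. It was left unnamed and outside that class. A further 25 neuroblast-like and 12 fibroblast-like wells were too few to compare as classes. Doublets were not called.

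Cholesterol does not cross the blood-brain barrier in useful amounts, so the brain makes its own, in astrocytes for supply to other cells and in oligodendrocytes for myelin. The mevalonate stage builds isoprenoid units, squalene synthase commits them to sterols, and the later enzymes close the rings and trim them to cholesterol. When membrane sterol falls, SCAP escorts SREBP proteins from the endoplasmic reticulum to the Golgi, where 2 proteases (S1P from Mbtps1 and S2P from Mbtps2) release the part that enters the nucleus and binds sterol regulatory elements. When sterol is plentiful, the INSIG proteins hold SCAP and SREBP back.

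SREBP proteins bind the sterol regulatory element and work beside the factor NF-Y, which binds the box CCAAT, so promoters were read for both. RefSeq start sites (GRCm38.p6) gave 300 bases, from 250 before to 50 after each start, for 24 of the 28 genes (not Fdps, Fdft1, Sqle or Stard4). Both strands were searched for the sterol element spelled TCACNCCAC, where N is any base, and for CCAAT, and a match to one can share no more than an end base with a match to the other. The sterol element spelling stood in 1 of the 24 genes, Hmgcs1, and in 1.24% of 32851 promoters. CCAAT stood in 20 of the 24 genes and in 37.4% of all promoters (21 of the 32 promoters of these genes, or 65.6%). A match is a description of letters in this window and not a bound site. The 4 promoters below belong to Hmgcs1, the entry enzyme of the pathway, to Msmo1 and Tm7sf2, which were far higher in RGL or astrocyte-like wells, and to Lbr, which had the opposite order. Capitals mark a match to either motif on the printed or the opposite strand, and each sequence is 5′ to 3′ on the gene's strand.
Hmgcs1, chr13:119690101-119690400, + strand: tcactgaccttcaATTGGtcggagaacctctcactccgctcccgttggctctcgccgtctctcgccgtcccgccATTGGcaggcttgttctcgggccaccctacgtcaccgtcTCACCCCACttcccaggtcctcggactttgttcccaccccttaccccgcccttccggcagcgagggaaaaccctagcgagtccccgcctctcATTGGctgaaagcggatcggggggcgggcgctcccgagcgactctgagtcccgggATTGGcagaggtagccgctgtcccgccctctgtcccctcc
Msmo1, chr8:64733529-64733828, minus strand: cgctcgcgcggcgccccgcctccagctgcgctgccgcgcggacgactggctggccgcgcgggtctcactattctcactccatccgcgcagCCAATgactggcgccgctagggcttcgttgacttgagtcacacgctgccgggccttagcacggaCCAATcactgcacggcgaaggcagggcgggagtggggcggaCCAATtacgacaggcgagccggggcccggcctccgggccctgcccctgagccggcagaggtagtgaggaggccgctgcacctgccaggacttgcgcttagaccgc
Tm7sf2, chr19:6067801-6068100, minus strand: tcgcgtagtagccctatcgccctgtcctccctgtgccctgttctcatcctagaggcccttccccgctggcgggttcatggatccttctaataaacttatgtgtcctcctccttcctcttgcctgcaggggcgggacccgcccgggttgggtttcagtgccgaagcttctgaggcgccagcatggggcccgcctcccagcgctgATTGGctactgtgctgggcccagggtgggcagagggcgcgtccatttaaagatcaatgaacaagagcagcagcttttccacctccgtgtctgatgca
Lbr, chr1:181842352-181842651, minus strand: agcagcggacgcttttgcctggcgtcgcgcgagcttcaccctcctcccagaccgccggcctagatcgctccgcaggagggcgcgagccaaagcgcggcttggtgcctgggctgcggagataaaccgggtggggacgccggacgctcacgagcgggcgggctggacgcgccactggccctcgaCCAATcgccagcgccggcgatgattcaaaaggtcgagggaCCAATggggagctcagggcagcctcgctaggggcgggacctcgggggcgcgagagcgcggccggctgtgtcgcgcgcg
In the Hmgcs1 promoter the sterol element spelling begins at base 114 of the 300.

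The antagomir is directed at miR-132-3p, so its sequence and the matches to its seed are shown too. The mature miRNA (22 bases, RefSeq GRCm38.p6) lies at chr11:75173723-75173744 on the + strand, and capitals mark the seed, bases 2 to 8.
miR-132-3p: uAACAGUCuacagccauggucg
Matches of 7 bases, GACTGTT (to the seed) or ACTGTTA (to bases 2 to 7 followed by A), were looked for in the longest annotated 3′ UTR of each gene (GENCODE M21, GRCm38). Of the 28 genes, 4 held a match (14.3%), against 18.3% of 21103 genes. None of the 28 held the full match of 8 bases, which 2.46% of all genes held. The 4 matches follow with 8 bases on either side, the match in capitals.
Acat2: cacctgacACTGTTAtaaataag
Idi1: taaaggtaACTGTTActtttggt
Cyp51: agtttgaaGACTGTTtgtttcta
Srebf1: aatgcaatGACTGTTtttttttt
They begin at base 157, 946, 1801 and 776 of the UTR.

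The pathway was most abundant in RGL or astrocyte-like wells and next in oligodendrocyte-like wells. The 28 genes summed to 3735 ± 604 CPM (mean ± SD, n = 8 mice; lowest 3032, highest 4716) in RGL or astrocyte-like wells. In oligodendrocyte-like wells they summed to 1819 ± 299 CPM (lowest 1465, highest 2406), so the ranges of the 2 classes did not overlap. Endothelial-like wells had 777 ± 210 CPM and mural-like wells 763 ± 252 CPM. The mevalonate enzymes summed to 791 ± 158 CPM in RGL or astrocyte-like, 314 ± 85.2 in oligodendrocyte-like, 121 ± 80.1 in endothelial-like and 108 ± 98.7 in mural-like wells. The squalene and sterol enzymes followed the same order, at 2237 ± 549, 933 ± 208, 316 ± 133 and 233 ± 121 CPM. The SREBP control genes were closer, at 704 ± 164, 569 ± 143, 292 ± 121 and 422 ± 183 CPM, and here mural-like wells lay above endothelial-like wells. Gene by gene, the highest mean was in RGL or astrocyte-like wells for 20 of 28 genes, in oligodendrocyte-like wells for Ebp, Lbr and Sc5d, in endothelial-like wells for Mbtps2 and Stard4, and in mural-like wells for Insig2, Mbtps1 and Scap.

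**Figure D1:**
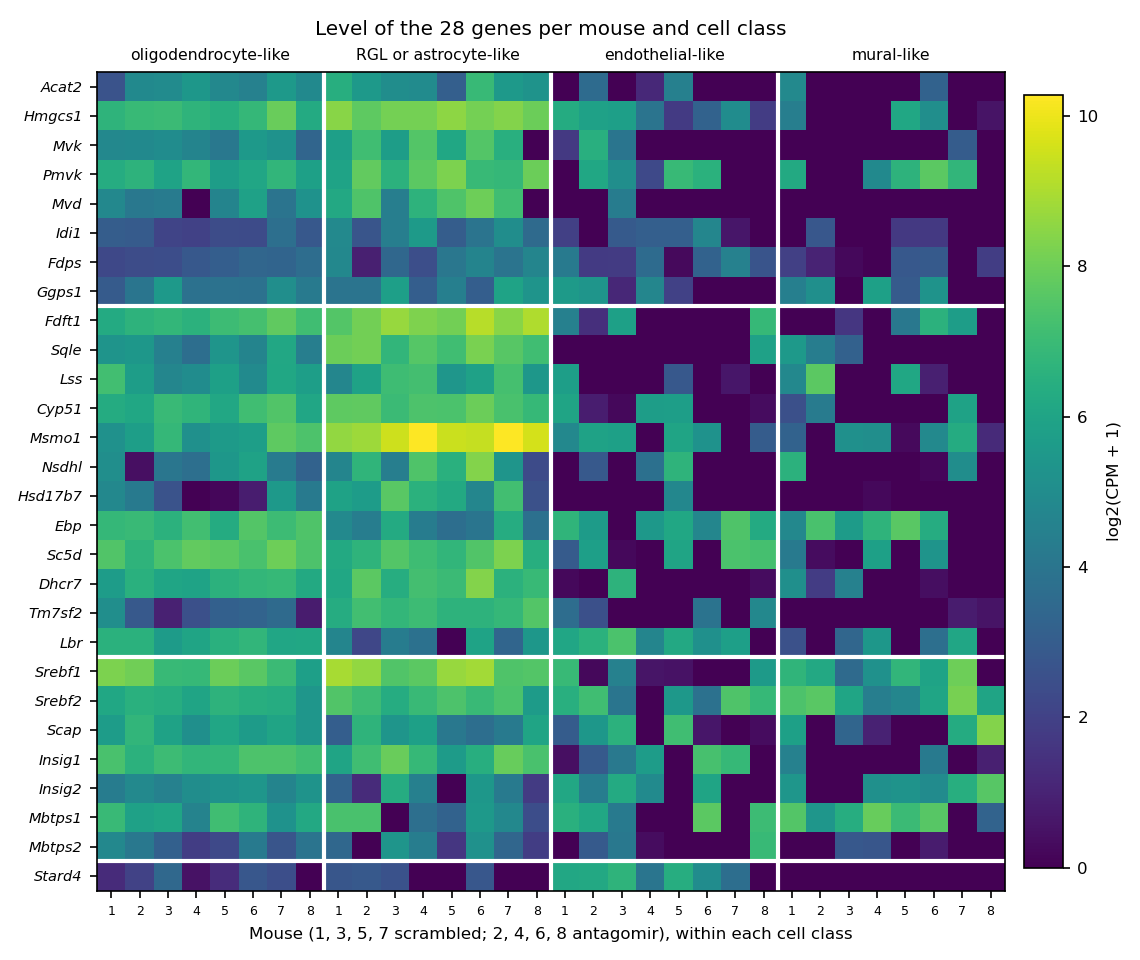
Level of each of the 28 genes, as log2(CPM + 1), in each of the 8 mice (columns) within each of the 4 cell classes, ordered by role. By mean, the RGL or astrocyte-like columns are the strongest for most enzymes, with Msmo1 at a mean of 769 CPM. Ebp and Lbr have higher means in the oligodendrocyte-like columns and Stard4 in the endothelial-like columns.

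Levels of different genes can be set side by side only per kilobase of transcript. On that scale the sterol isomerase Ebp led in oligodendrocyte-like wells (56.4 ± 15.3 CPM per kb), followed by phosphomevalonate kinase Pmvk (46.2 ± 13.6) and the SREBP brake Insig1 (43.7 ± 9.25). Their spreads overlap, so these 3 neighbours are not separated. In RGL or astrocyte-like wells the sterol 4-methyl oxidase Msmo1 led with 125 ± 51.4 CPM per kb, followed by Pmvk (99.6 ± 49.0), squalene synthase Fdft1 (86.2 ± 32.5) and HMG-CoA synthase Hmgcs1 (64.1 ± 11.7). These neighbours also overlap. Ebp, first in the oligodendrocyte-like order, stood at 14.3 ± 12.5 CPM per kb in RGL or astrocyte-like wells, and Msmo1 at 14.6 ± 11.0 in oligodendrocyte-like wells.

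The comparison of the 2 glial classes was fitted on all genes with edgeR's quasi-likelihood test on counts summed per mouse and class, with the mouse as a block. At an adjusted p under 0.05, 26.3% of 10559 genes differed in either direction, 14.2% higher and 12.1% lower in oligodendrocyte-like wells. Of the 28 genes 7 passed, a share near that background, with 1 higher (Ebp) and 6 lower (Hmgcs1, Fdft1, Sqle, Msmo1, Tm7sf2 and Srebf1). The median log2 difference, oligodendrocyte-like minus RGL or astrocyte-like, was -0.59 over the 28 genes and 0.44 over all genes. By role, 1 of 8 mevalonate enzymes was lower, 4 of 12 squalene and sterol enzymes were lower and 1 higher, 1 of 7 SREBP control genes was lower, and Stard4 passed in neither direction. DESeq2 called 14 of the 28, and limma on log2 CPM, an alternative chosen after seeing the data, called 10, these 7 among them each time. Over all 10559 genes DESeq2 called 4750, a share near that of the 28, and the share with limma is not given here. With limma Cyp51, Hsd17b7 and Lbr passed too (adjusted p = 0.0491, 0.0363 and 0.021). The oligodendrocyte-like wells were deeper, at a median of 829783.5 counts against 526669.

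At the entry to the pathway, Hmgcs1, which makes HMG-CoA, was lower in oligodendrocyte-like wells. Its level per mouse ran from 77.0 to 244 CPM (median 109) there and from 213 to 370 CPM (median 281) in RGL or astrocyte-like wells. The ranges overlap through scrambled replicate 4, at 244 CPM in oligodendrocyte-like wells, but within each of the 8 mice the oligodendrocyte-like value was the lower one. The fitted log2 difference was -1.20 (SE 0.23, adjusted p = 0.0029). The later mevalonate enzymes did not pass the test. Pmvk averaged 79.1 against 171 CPM (adjusted p = 0.11) and mevalonate kinase Mvk 27.3 against 95.5 CPM (adjusted p = 0.386). The decarboxylase Mvd averaged 24.3 ± 17.1 against 117 ± 86.2 CPM (adjusted p = 0.347), with 1 or more mice at 0 in both classes. Acat2, a cytosolic thiolase, and the prenyl synthases Fdps and Ggps1 did not pass either, at means of 28.5 against 50.3, 7.0 against 15.2 and 19.7 against 27.4 CPM.

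Squalene synthase Fdft1 and squalene epoxidase Sqle, the first enzymes dedicated to sterols, were both lower in oligodendrocyte-like wells. Fdft1 ran from 76.5 to 216 CPM (median 120) there and from 184 to 584 CPM (median 330) in RGL or astrocyte-like wells. The fitted log2 difference was -1.36 (SE 0.22, adjusted p = 0.00081), with the same order in all 8 mice. Sqle, an oxygen-dependent step, ran from 12.02 to 69.7 CPM (median 31.4) against 109 to 299 CPM (median 192). The 2 ranges of Sqle did not overlap, and its log2 difference was -2.52 (SE 0.34, adjusted p = 0.00025). Next in the pathway, Lss, which closes the rings, averaged 57.6 against 81.9 CPM and did not pass (adjusted p = 0.696). Cyp51, the lanosterol demethylase, averaged 104 against 176 CPM and was lower in 7 of 8 mice without passing (adjusted p = 0.0855).

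The largest fitted differences among the 7 genes that passed were at 2 steps on the sterol rings. Msmo1, which oxidises the methyl groups at carbon 4, ran from 34.4 to 210 CPM (median 53.8) in oligodendrocyte-like wells and from 388 to 1240 CPM (median 714) in RGL or astrocyte-like wells. Every RGL or astrocyte-like value lay above every oligodendrocyte-like value, and the log2 difference was -3.15 (SE 0.34, adjusted p = 5.6e-05). Tm7sf2, a sterol C14 reductase, ran from 0.704 to 32.5 CPM (median 7.08) against 81.5 to 183 CPM (median 113). Its ranges were also apart, with a log2 difference of -4.27 (SE 0.77, adjusted p = 0.0019). Nsdhl and Hsd17b7, the partners of Msmo1 in removing those methyl groups, varied widely between mice. Hsd17b7 averaged 14.3 ± 16.2 against 80.9 ± 62.9 CPM (adjusted p = 0.152) and Nsdhl 23.6 ± 19.6 against 99.1 ± 110 CPM (adjusted p = 0.322).

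Lbr, an inner nuclear membrane protein, carries the same C14 reductase activity as Tm7sf2, and its means had the opposite order. Lbr ran from 48.5 to 107 CPM (median 80.1) in oligodendrocyte-like wells and from 0 to 61.5 CPM (median 16) in RGL or astrocyte-like wells. It was higher in oligodendrocyte-like wells in 8 of 8 mice, but the fitted log2 difference of 2.63 had an SE of 0.94 and did not pass (adjusted p = 0.0635). Ebp, which moves a double bond within the ring system, was higher in oligodendrocyte-like wells. Ebp ran from 78.9 to 183 CPM (median 127) there and from 12.1 to 81.6 CPM (median 19.3) in RGL or astrocyte-like wells, with a log2 difference of 2.52 (SE 0.47, adjusted p = 0.0023) and the same order in 8 of 8 mice. The last enzymes, Sc5d and Dhcr7, did not pass, at means of 182 against 146 CPM (adjusted p = 0.144) and 82.9 against 147 CPM (adjusted p = 0.154).

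**Figure D2:**
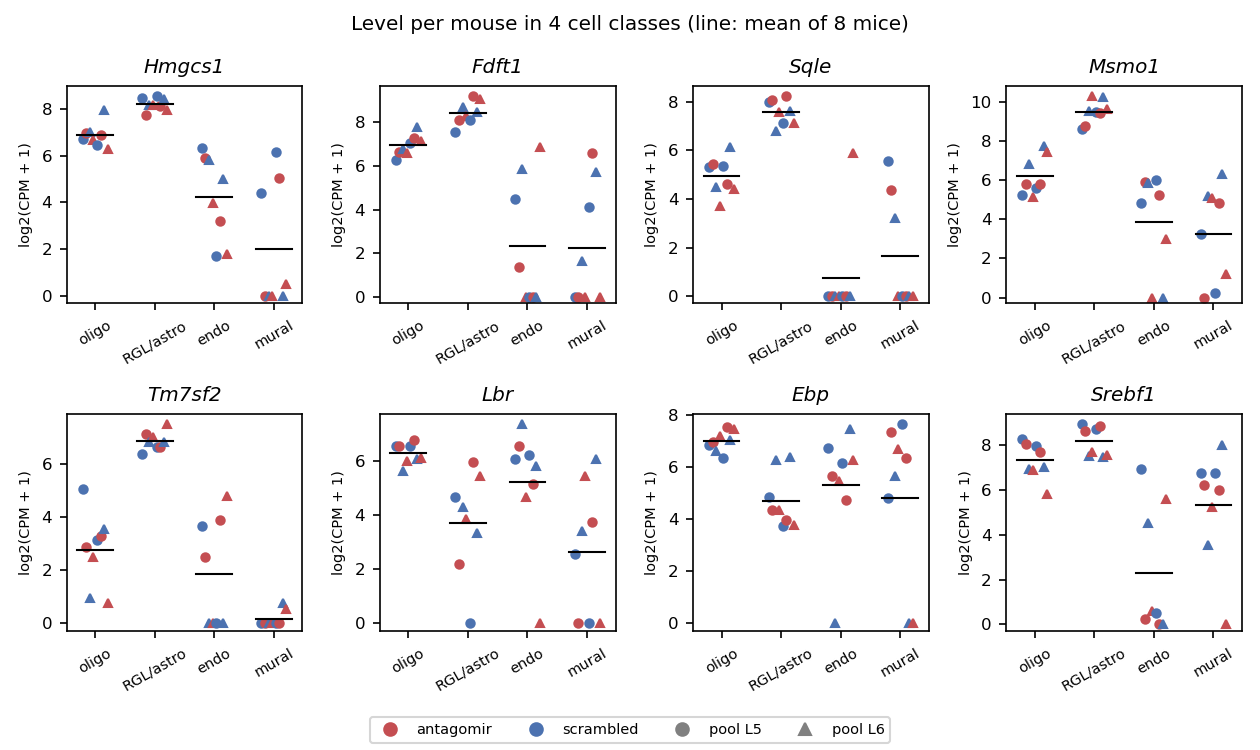
Level per mouse, as log2(CPM + 1), of 8 genes in the 4 cell classes; colour marks the treatment group, shape the pool (circle L5, triangle L6) and the line the mean of the log2 values of 8 mice. Every RGL or astrocyte-like point of Msmo1 (388 to 1240 CPM), Sqle (109 to 299 CPM) and Tm7sf2 (81.5 to 183 CPM) lies above all oligodendrocyte-like points of that gene, while Lbr and Ebp sit higher in oligodendrocyte-like wells.

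For Msmo1, Tm7sf2, Sqle, Lbr and Ebp the same orders stood in the share of wells with at least 1 read. Not every gene followed its mean CPM. Fdps, with the lower mean in oligodendrocyte-like wells, was found in 49.28% of them and in 32.25% of RGL or astrocyte-like wells (means over 8 mice). Lss and Ggps1 reversed in the same way. Msmo1 was found in 43.6% of oligodendrocyte-like and 78.4% of RGL or astrocyte-like wells (means over 8 mice), and in 43.3% and 80.9% after each well was thinned to 200000 counts (297 and 148 wells were deep enough). For Tm7sf2 the shares were 9.12% and 45.1%, or 7.52% and 46.0% thinned. For Sqle they were 19.3% and 46.6%, or 16.6% and 46.7% thinned. Lbr ran the other way with 46.7% and 10.2%, or 43.7% and 9.84% thinned, and so did Ebp with 42.4% and 9.36%, or 42.4% and 9.15% thinned. Endothelial-like wells (median 565180 counts) had Msmo1 in 11.6% and Tm7sf2 in 8.67%. Mural-like wells (median 530922.5 counts) had Tm7sf2 in 3.87%.

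Within each pool, 4 mice against the same 4 mice, the 7 differences kept their sign. In pools L5 and L6 the log2 differences were -3.33 and -3.02 for Msmo1, -2.53 and -2.59 for Sqle, -1.26 and -1.52 for Fdft1, and -3.12 and -5.72 for Tm7sf2. They were -1.33 and -1.14 for Hmgcs1, 2.92 and 1.96 for Ebp, and -0.64 and -0.84 for Srebf1. With fewer mice, 3 of the 7 genes were called within L5 (Msmo1, Sqle and Ebp) and 4 within L6 (Msmo1, Sqle, Fdft1 and Tm7sf2). Some read counts may belong to neighbours: 12 of the 28 genes share exonic bases with another annotated gene, 9 with one on the opposite strand, among them Fdft1 with Ctsb, Srebf1 with Rai1, Hmgcs1 with Gm48342 and Lbr with Dnah14. Tm7sf2, which had the largest fitted difference of the 7 genes, shares exonic bases with Vps51 on the same strand. The sources used here do not say whether the counting used strand, and the share of such reads was not tested.

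Of the control genes, only Srebf1, which encodes SREBP-1, passed the test between the glial classes. Srebf1 ran from 54.2 to 302 CPM (median 165) in oligodendrocyte-like wells and from 172 to 487 CPM (median 299) in RGL or astrocyte-like wells. The ranges overlap broadly, but within every mouse the oligodendrocyte-like value was lower. The log2 difference was -0.71 (SE 0.21, adjusted p = 0.0268). It lost the threshold without antagomir replicate 2, 3 or 4 (adjusted p = 0.0534, 0.0679 and 0.0519), without the mouse block (0.231), with no filter on low counts (0.188), and when the unnamed cluster was added to the class (log2 -0.35, 0.281). Srebf2, which encodes SREBP-2, the main driver of cholesterol genes, ran from 41.6 to 98.3 CPM (median 82.6) against 49.3 to 180 CPM (median 127), with a log2 difference of -0.53 (adjusted p = 0.153). It was lower in oligodendrocyte-like wells in 7 of 8 mice.

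The genes that hold or escort SREBP did not differ detectably between the glial classes. Insig1, itself a sterol-responsive gene, averaged 135 ± 28.6 CPM in oligodendrocyte-like wells (96.5 to 171) and 136 ± 72.8 in RGL or astrocyte-like wells (49.5 to 240), with a log2 difference of 0.29 (adjusted p = 0.564). Insig2 averaged 30.1 ± 8.20 against 21.8 ± 27.7 CPM (adjusted p = 0.331) and Scap 58.7 ± 22.3 against 39.4 ± 33.0 CPM (adjusted p = 0.155). The protease genes Mbtps1 and Mbtps2 averaged 77.4 against 52.2 and 11.8 against 14.9 CPM, with adjusted p of 0.265 and 0.88. The spread in RGL or astrocyte-like wells was wide for all of these genes, so differences of a few fold could have been missed for some of them. The median 95% interval of a gene above 20 CPM reached 1.41 on the log2 scale to either side.

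Both glial classes had more cholesterol transcripts than the vessel classes, but so had many other genes. Endothelial-like and mural-like sums rest on few wells per mouse, and many of these genes were at 0 in some mice, which makes fitted folds very large. The levels are therefore given as means, and the fitted medians beside those of all genes. Against endothelial-like wells, 22.7% of 9274 genes were higher and 5.38% lower in oligodendrocyte-like wells (28.1% in either direction). Of the 28 genes 27 could be tested, and 9 were higher and 0 lower (Hmgcs1, Acat2, Mvd, Fdft1, Sqle, Lss, Cyp51, Dhcr7 and Srebf1). Their median log2 difference was 4.32, against 2.5 for all genes tested. In RGL or astrocyte-like wells against endothelial-like wells, 17.3% of 8545 genes were higher and 5.01% lower (22.4% in either direction), and of the 28 genes 14 were higher and 0 lower. The median was 5.22 for these genes and 1.87 for all.

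Dhcr7, a reductase of the last steps, had most of its endothelial-like values at 0. It averaged 82.9 ± 24.5 CPM (49.8 to 117) in oligodendrocyte-like wells and 12.3 ± 34.7 CPM in endothelial-like wells, where the median mouse was at 0 and 1 mouse reached 98.1. Dhcr7 was the higher one in oligodendrocyte-like wells in 7 of 8 mice (adjusted p = 0.0027), a call that ended with no mouse block (0.248) and within L6 (0.126). Hmgcs1 had counts in every mouse, with 31.4 ± 29.4 CPM (2.34 to 79.0) in endothelial-like wells. It was higher in oligodendrocyte-like wells (log2 3.25, SE 0.99, adjusted p = 0.0258) and in RGL or astrocyte-like wells (log2 4.57, SE 0.96, adjusted p = 0.0026), in 8 of 8 mice each time. The first of these calls ended without scrambled replicate 3 (adjusted p = 0.0614), without antagomir replicate 3 or 4 (0.0614 and 0.0552), with no filter on low counts (0.0532), with equal cell numbers (0.0613) and within either pool, and the second within L5 (0.107). Srebf1 averaged 23.7 ± 42.1 CPM in endothelial-like wells and was lower there than in oligodendrocyte-like wells (adjusted p = 0.0173) and RGL or astrocyte-like wells (0.0055). Both Srebf1 calls ended with no mouse block (0.138 and 0.0513) and within either pool, and the former also without scrambled replicate 3 (0.0516). Srebf2 did not pass either comparison, at 73.7 ± 65.0 CPM in endothelial-like wells (adjusted p = 0.469 and 0.275). Insig1, Insig2 and Scap, at 43.6 ± 60.9, 32.4 ± 33.0 and 35.7 ± 53.9 CPM there, passed neither.

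Stard4 had its highest mean in endothelial-like wells. It averaged there 48.4 ± 38.3 CPM (0 to 102, median 51.0), against 3.40 ± 3.43 in oligodendrocyte-like wells and 2.88 ± 3.10 in RGL or astrocyte-like wells. It was found in 27.2% of endothelial-like wells against 4.96% and 5.65% of the glial wells. No mouse had a higher level in either glial class than in its endothelial-like wells. The edgeR test did not pass (adjusted p = 0.0756 and 0.0911), while limma on log2 CPM gave 0.0175 and 0.0086. In the 82 mural-like wells Stard4 had 0 of 43174762 counts. It was higher in endothelial-like than in mural-like wells in 7 mice and lower in 0. Reads are not independent molecules, so no fold is given.

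In mural-like wells, 19.5% of 9321 genes were lower and 5.51% higher than in oligodendrocyte-like wells (25% in either direction). Of the 28 genes 24 could be tested, and 10 were higher in oligodendrocyte-like wells (Acat2, Hmgcs1, Mvk, Idi1, Fdft1, Cyp51, Sc5d, Dhcr7, Insig1 and Mbtps2) and 0 lower. The medians were 5.89 for these genes and 2.07 for all. In the comparison of RGL or astrocyte-like with mural-like wells 13.9% of 8618 genes were higher and 4.71% lower (18.6% in either direction), with 15 of 26 tested genes higher, 0 lower, and medians of 7.25 and 1.40. Some tested genes, such as Tm7sf2 and Hsd17b7, were near 0 in mural-like wells and passed the filter only through the glial class. Insig1 stood out among the control genes, at 5.0 ± 9.07 CPM in mural-like wells (0 to 21.7) against 135 in oligodendrocyte-like wells and 136 in RGL or astrocyte-like wells (adjusted p = 0.0031 and 0.0067, higher in 8 of 8 mice each). Within L5 neither Insig1 call held (0.16 and 0.373). Srebf2 had 112 ± 95.1 CPM in mural-like wells (20.1 to 285) and did not differ detectably from either glial class (adjusted p = 0.765 and 0.405). Srebf1 averaged 80.8 ± 80.2 CPM there, lower than in RGL or astrocyte-like wells (adjusted p = 0.0289) and not passing against oligodendrocyte-like wells (0.0738). The Srebf1 call ended without antagomir replicate 1 or 3 (0.0569 and 0.063), without scrambled replicate 2 (0.069), with equal cell numbers (0.093) and within L6 (0.263). Insig2 and Scap averaged 53.3 ± 63.7 and 60.1 ± 115 CPM and passed neither comparison. Mvd had no count in any of the 82 mural-like wells. It was found in 6.62% of oligodendrocyte-like and 24.4% of RGL or astrocyte-like wells, pooled over mice. Reads are not independent molecules, so no fold is given.

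The counts of genes called against the vessel classes depend on the test. With DESeq2, 22 of the 28 genes were called against endothelial-like and 18 against mural-like wells in oligodendrocyte-like wells, and 23 and 20 in RGL or astrocyte-like wells. Over all genes DESeq2 called 5869 of 9274 and 4957 of 9321 in oligodendrocyte-like wells. It called 4541 of 8545 and 3866 of 8618 in RGL or astrocyte-like wells. When the classes were thinned to equal cell numbers in each mouse, chosen after seeing the data, 3 and 5 genes were called in oligodendrocyte-like wells. Within pool L5 alone 1 and 0 were called, and within L6 0 and 2. The shares of all genes called with equal cell numbers or within a pool are not given here.

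Genes around the pathway were counted in related lists, beside the 14.2% of all genes that were higher and the 12.1% that were lower in oligodendrocyte-like wells. Of 6 tested efflux and LXR genes 3 were higher and 2 lower in oligodendrocyte-like wells. The cholesterol exporter Abcg1 averaged 358 against 0.0597 CPM (adjusted p = 3.1e-07) and the transporter Abca2 936 against 56.5 CPM (3.7e-05), while Abca1, which loads lipoprotein particles, averaged 64.9 against 247 CPM (0.00098). Of 8 uptake and lysosomal export genes 4 were higher and 2 lower. The lysosomal exporter Npc1 averaged 262 against 128 CPM (0.0086), and the lipoprotein receptors Lrp8 and Lrp1 averaged 0.00509 against 40.4 (5.1e-05) and 1.85 against 269 CPM (0.00092). Of 5 ester and oxysterol genes 1 was higher and 2 lower. Soat1, which esterifies cholesterol, averaged 18.6 against 273 CPM (3.0e-05). The oxysterol hydroxylase Cyp7b1 averaged 1.31 against 290 CPM (0.00062), and Cyp27a1, the sterol 27-hydroxylase, 107 against 0 CPM (0.002).

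Of the 12 fatty acid genes known as SREBP-1 targets, 2 were higher and 5 lower in oligodendrocyte-like wells. The desaturase Scd2 averaged 2924 against 1099 CPM (adjusted p = 0.00012), and the desaturases Fads2 and Fads1 averaged 1.54 against 547 (0.00022) and 149 against 434 CPM (0.00083). Against endothelial-like wells 11 of 12 tested genes of this list were higher in RGL or astrocyte-like wells, where 17.3% of all genes were, and 8 of 11 in oligodendrocyte-like wells, where 22.7% were. The limit of the expression filter given for the vessel classes holds for these counts too. Of 10 isoprenoid genes 1 passed between the glial classes, the dolichol enzyme Dhdds with 90.3 against 46.3 CPM (0.0427).

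The study compared the antagomir with the scrambled oligonucleotide, and none of the 28 genes passed that test. In all cells of a mouse summed, 0% of 15447 genes had an adjusted p under 0.05 with edgeR, and of the 28 genes 0 were called and 1 had an unadjusted p under 0.05, against 280 of all genes. In oligodendrocyte-like wells 0% of 10778 and in RGL or astrocyte-like wells 0% of 10081 genes were called, with 1 of the 28 at an unadjusted p under 0.05 in each (214 and 157 of all genes). DESeq2 called 10, 13 and 8 genes in the 3 comparisons, and 0 of the 28. In sums over all cells, a change in the mix of cells and a change in the level per cell cannot be told apart. Of the 28 fitted differences, 16 were above and 12 below 0 in all cells, 9 and 19 in oligodendrocyte-like wells, and 14 and 14 in RGL or astrocyte-like wells. The groups of mice did not overlap for 1.95% of all genes in all cells, 2.19% in oligodendrocyte-like wells and 2.4% in RGL or astrocyte-like wells. For the 28 genes this count was 0, 0 and 1.

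**Figure D3:**
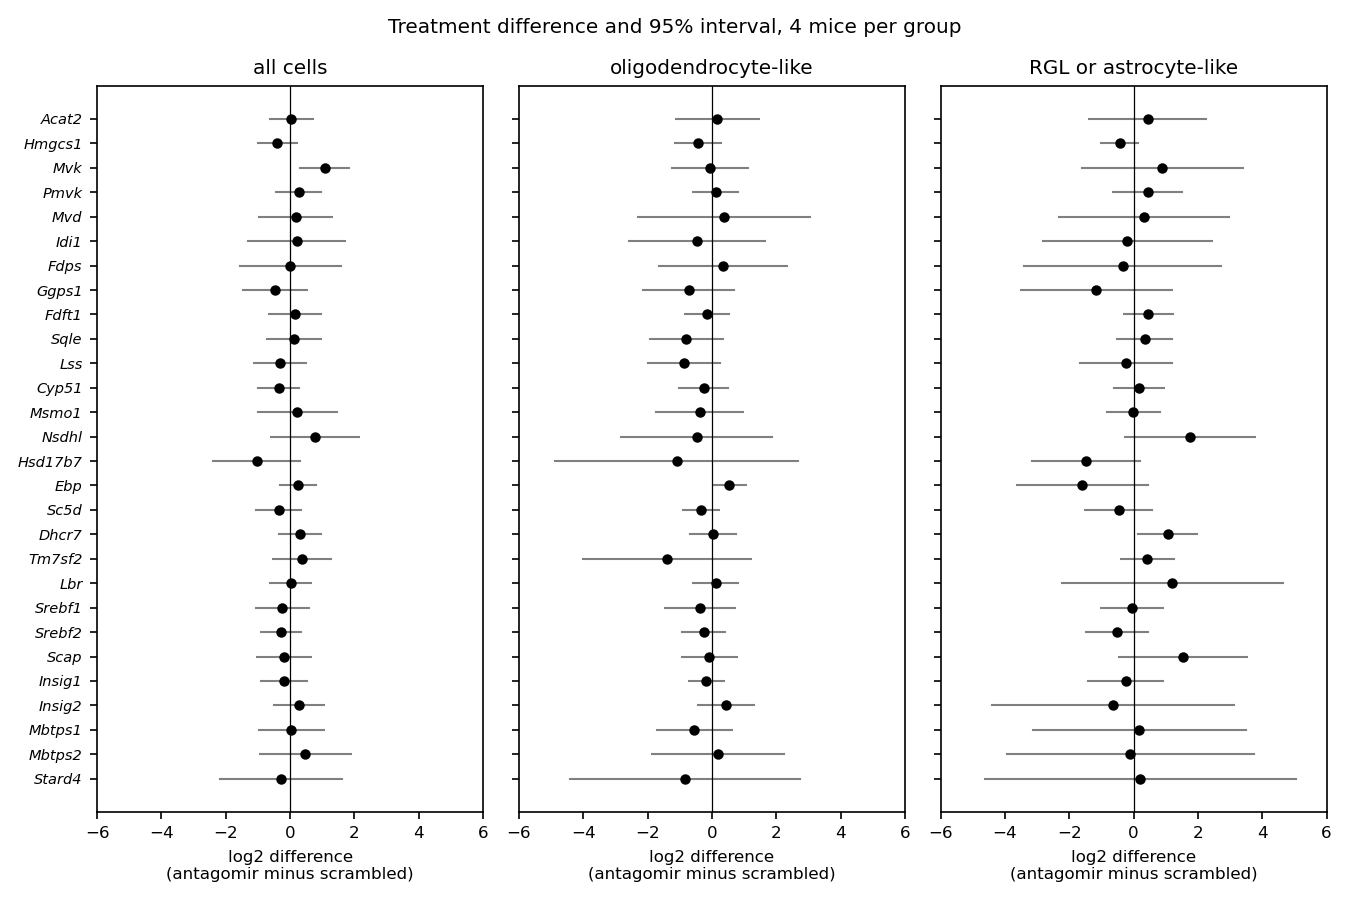
Fitted log2 difference, antagomir minus scrambled, of each of the 28 genes in all cells, oligodendrocyte-like and RGL or astrocyte-like wells, with 95% confidence intervals (4 against 4 mice). No gene has an adjusted p under 0.05, Mvk in all cells lies at 1.07, and the intervals are widest in RGL or astrocyte-like wells.

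The 4 genes with the smallest p in each comparison are given by value. In all cells Mvk, which phosphorylates mevalonate, was at 54.7, 78.4, 65.1 and 43.4 CPM in antagomir replicates 1 to 4 and at 20.6, 27.7, 19.8 and 44.0 CPM in scrambled replicates 1 to 4. The groups touch only where scrambled replicate 4 lies above antagomir replicate 4. The log2 difference was 1.07 (SE 0.34, 95% interval 0.31 to 1.83, unadjusted p = 0.0106 and adjusted p = 1.00 with edgeR), and 0.72 to 1.52 within single days or pools. The other 3 were Hsd17b7 (17.8 against 35.5 CPM, log2 -1.04), Nsdhl (52.9 against 29.8, log2 0.77) and Hmgcs1 (126 against 162, log2 -0.40). Both Hsd17b7 and Hmgcs1 rest on scrambled replicate 4: without it the log2 differences were -0.50 and -0.10.

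In oligodendrocyte-like wells the smallest p belonged to Ebp. It was at 123, 142, 183 and 173 CPM in antagomir replicates 1 to 4 and at 114, 97.3, 78.9 and 130 CPM in scrambled replicates 1 to 4. The groups overlap by 1 mouse of each, and the log2 difference was 0.54 (SE 0.23, unadjusted p = 0.0394, adjusted p = 1.00), 0.28 to 0.76 within days or pools. Lss averaged 41.4 against 73.7 CPM (log2 -0.88), Sqle 24.5 against 42.4 (log2 -0.80) and Hmgcs1 104 against 140 CPM (log2 -0.43). Without scrambled replicate 4, Hmgcs1 differed by -0.04.

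In RGL or astrocyte-like wells the smallest p belonged to Dhcr7, at 206, 145, 329 and 120 CPM in antagomir replicates 1 to 4 and at 68.7, 84.6, 126 and 95.2 CPM in scrambled replicates 1 to 4. Only antagomir replicate 4 fell among the scrambled mice. The log2 difference was 1.06 (SE 0.42, unadjusted p = 0.0263, adjusted p = 1.00), 0.52 to 1.42 within days or pools. Nsdhl averaged 154 against 44.0 CPM (log2 1.75), Hsd17b7 43.5 against 118 (log2 -1.48) and Ebp 16.5 against 49.4 CPM (log2 -1.60), none of which passed. Hmgcs1 was the gene whose groups did not overlap, at 213, 281, 276 and 248 CPM in the antagomir replicates and 351, 282, 370 and 334 CPM in the scrambled ones.

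**Figure D4:**
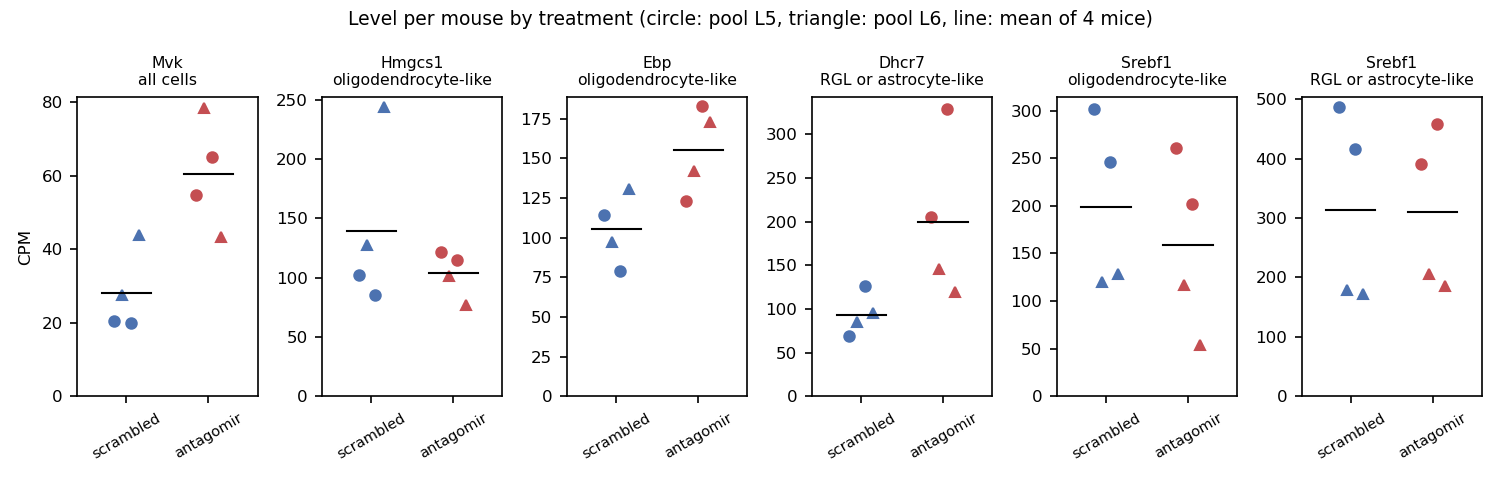
CPM per mouse by treatment (4 points per group, line at the mean, circles for pool L5 and triangles for pool L6) of Mvk, Hmgcs1, Ebp, Dhcr7 and Srebf1 in the cells named above each panel. The groups overlap in every panel, by 1 mouse of each group for Mvk (43.4 and 44.0 CPM), the scrambled Hmgcs1 point at 244 CPM is scrambled replicate 4, and the circles of Srebf1 lie above its triangles in both classes.

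Whether the treatment difference itself differed between the glial classes was tested as an interaction. At an adjusted p under 0.05, 0% of 13035 genes and 0 of the 28 genes were called (308 and 1 at an unadjusted p under 0.05). Ebp had the smallest p, with an interaction of 1.78 on the log2 scale (unadjusted p = 0.0354), followed by Sqle (-1.22, 0.0589), Dhcr7 (-0.97, 0.0789) and Scap (-1.73, 0.103). The 95% interval of a gene above 20 CPM reached a median of 0.82 to either side in all cells, 0.91 in oligodendrocyte-like wells and 1.86 in RGL or astrocyte-like wells, and 2.84 for the interaction. These are intervals of single genes with no adjustment for the number of genes, so larger differences could also miss the threshold at this number of mice.

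The 4 genes with a seed match were among those that did not pass. No test of the 4 as a set was made.

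Between the 2 pools Srebf1 had the smallest p of the 28 genes in oligodendrocyte-like wells, without passing the test. In oligodendrocyte-like wells Srebf1 was at 302, 261, 247 and 202 CPM in the mice of pool L5 and at 120, 117, 128 and 54.2 CPM in the mice of pool L6. The pools did not overlap, as for 9.48% of 10778 genes and 2 of the 28 (Srebf1 and Lbr), which is not above that share. The log2 difference, L6 minus L5, was -1.39 (SE 0.22, unadjusted p = 0.00025), and the adjusted p was 0.0715. With edgeR 0.111% of genes and 0 of the 28 were called. In RGL or astrocyte-like wells Srebf1 was also apart, at 439 ± 42.7 CPM (SD, n = 4) in L5 and 186 ± 14.7 in L6. Msmo1 had the opposite order without passing, at 47.8 against 132 CPM in oligodendrocyte-like (log2 1.18, adjusted p = 0.396) and 550 against 988 CPM in RGL or astrocyte-like wells. Each pool held 2 antagomir and 2 scrambled mice. Clusters within the oligodendrocyte-like class were unevenly split between pools, with 82.2% of one cluster of 90 wells from L6, and Srebf1 pooled over wells was at 180, 207 and 130 CPM in the clusters of 176, 36 and 90 wells. The RGL or astrocyte-like class was uneven too. From L6 came 72.8% of its shallow cluster of 81 wells and 48.3% of its cluster of 87 wells. The shallow cluster had a median of 1693 genes and 6.37% mitochondrial counts, against 3042 and 2.88%. Srebf1 pooled over wells was at 195 CPM in the shallow cluster and 341 CPM in the other. The part of these splits in the pool differences was not tested.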

How the data were processed

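Single GFP-positive cells of 8 mice were sequenced in 768 wells. The authors deposited raw read counts per gene symbol and well, made per the submitters' processing notes with FastQC, STAR 2.5.2, Subread featureCounts 1.5.1 and Seurat 2.3.1 on build mm10. The sources used here give neither the annotation nor the strand setting. The 4 GEO samples could not be tied to single mice, so treatment, mouse, pool and sort day come from the deposited well table.

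Wells with 500 to 6000 detected genes were clustered with scanpy 1.11.5 (2000 variable genes without the 28 genes and the related lists, 20 principal components, Leiden resolution 1) and named from marker lists. Counts were summed per mouse, or per mouse and class, and tested across all genes passing edgeR's expression filter with edgeR 4.0.16 (TMM, quasi-likelihood test, two-sided, Benjamini-Hochberg adjustment, threshold 0.05). Class comparisons had the mouse as a block. Alternatives used DESeq2 1.42.0, limma 3.58.1, other filters, other cell sets and left-out mice. The tests were checked on simulated data. Depth per mouse was 43996495 to 69191485 counts. Intervals come from the edgeR fits to sums per mouse, so they include variation between mice.

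The 28 genes and all lists were chosen with earlier results of these data known. Values per mouse were given for up to 8 genes per direction past the threshold and for Srebf1, Srebf2, Scap, Insig1 and Insig2 in class comparisons, for the 4 smallest p in treatment comparisons, and for up to 3 genes past the threshold of each related list. Other genes were named after their values were seen. The pairing of an antagomir with a scrambled mouse comes from the shared sort day and pool in the well table, and the 12 correlations of paired deviations over genes ran from 0.02 to 0.38. One list, of sterol-regulated degradation, is not reported here.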

Additional observations from a re-analysis of the deposited data

Results flagged for a closer look

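Of 62 sets of mice checked for a single far value, 7 had one. Chance gives about 1 in 20 only for independent sets of normally distributed values. The sets here share genes and mice, and normality was not tested, so 7 is not read as an excess. In oligodendrocyte-like wells Hmgcs1 was at 244 CPM in scrambled replicate 4, against 77.0 to 127 CPM in the other 7 mice. The same mouse had the highest sums of the mevalonate enzymes (502 CPM, others 230 to 333) and of the squalene and sterol enzymes (1390 CPM, others 748 to 1020) in these wells. In all cells Hsd17b7 was at 68.3 CPM in that mouse, against 22.2 to 26.9 CPM in the other 3 scrambled mice. Scap was at 106 CPM in the oligodendrocyte-like wells of antagomir replicate 1, against 33.9 to 65.8 in the others. Tm7sf2 was at 32.5 CPM in those of scrambled replicate 1, against 0.704 to 10.8 in the others. In endothelial-like wells the 28 genes summed to 293 CPM in antagomir replicate 2, which had 5 such wells, against 717 to 950 CPM in the other mice.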

How the results depend on the processing

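For those of the 28 genes with values per mouse, 1339 alternative values were computed. Of these, 1195 kept direction and side of the threshold, 111 lost it, 21 gained it and 12 changed sign. The genes of the related lists were not followed through the alternatives. Between the glial classes 7 of the 28 genes were called, 14 with DESeq2, 4 within pool L5, 4 within L6, and 6 to 8 with 1 mouse left out. Of oligodendrocyte-like against endothelial-like wells (9 genes), the count was 22 with DESeq2, 17 with limma, 3 with equal cell numbers, 1 with no replicate block, 1 and 0 within L5 and L6, and 5 to 9 with 1 mouse left out (5 without antagomir replicate 3). Against mural-like wells (10 genes) it was 18, 18, 5, 3, 0 and 2, and 8 to 10. For RGL or astrocyte-like against endothelial-like wells (14 genes) it was 23 with DESeq2, 6 with no replicate block, 4 and 7 within L5 and L6, and 12 to 14 with 1 mouse left out. Against mural-like wells (15 genes) it was 2 and 8 within the pools and 12 to 14 with 1 mouse left out. Pools hold fewer mice. The cause of the other shifts was not tested. Over all genes DESeq2 called 4750, 5869, 4957, 4541 and 3866 in these 5 comparisons, against 2774, 2603, 2330, 1910 and 1603 with edgeR. The genes that passed the filter were 10559, 9274, 9321, 8545 and 8618. The treatment, interaction and pool comparisons called 0 of the 28 genes in all alternatives run, and the replicate block of sort day and pool called 0 and changed no call. The sign changes, all in log2 differences that passed no threshold, were these. For treatment they were Hsd17b7 (0.067) and Hmgcs1 (0.0099) in all cells within sort day 1, and Hmgcs1 in oligodendrocyte-like wells within L5 (0.29). Insig1 between the glial classes was -0.36 within L6. With no replicate block Srebf2 (-0.11) and Insig2 (-0.33) changed sign between oligodendrocyte-like and mural-like wells, and so did Scap (-0.086) between RGL or astrocyte-like and mural-like wells. Insig2 between RGL or astrocyte-like and endothelial-like wells (log2 0.34) ranged from -0.33 to 1.07 with 1 mouse left out (-0.27 without scrambled replicate 4 and -0.33 without antagomir replicate 4), and was -0.32 with no replicate block, -2.22 within L5 and -0.51 with equal cell numbers.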
